A study of Mus musculus with 10 samples.

Results

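The 8 genes described here encode the core of the phosphoinositide 3-kinase (PI3K), AKT and mTOR pathway: the catalytic PI3K subunits Pik3ca and Pik3cb, the regulatory subunits Pik3r1 and Pik3r2, the kinase Pdpk1, the AKT kinases Akt1 and Akt2, and Mtor. They were taken from the gene count table by name. All 8 were found among the 54532 genes of the table, and all 8 were among the 17665 genes that passed the filter on low counts. Their levels came from RNA-seq of brain RNA from 10 mice, all homozygous (HO) for a knockout allele of Slc20a2, a phosphate transporter gene. Of these mice, 6 received FTY720, a modulator of sphingosine-1-phosphate receptors, and 4 received placebo, which was dimethyl sulfoxide (DMSO), the solvent of the drug. Intraperitoneal injections of FTY720 (0.5 mg/kg) or DMSO were given 3 times a week over 12 weeks, starting at 1.5 months of age, and the RNA came from a part of each brain. The allele is Slc20a2tm1a(EUCOMM)Wtsi, a germline allele carried by treated and control mice alike, so that each comparison was made within the knockout; wild-type mice were not analysed here. Slc20a2 itself still had between 89 and 294 counts per mouse, a count over the whole gene that does not separate its exons.

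The mouse names begin with F (FTY720) or P (placebo) followed by the digit 1 or 3, and the labels do not say what the digit stands for. Digit 1 was carried by 3 FTY720-treated mice and 1 placebo mouse, and digit 3 by 3 mice of each group. The digit went with the content of the tissue: the summed level of 12 cerebellum marker genes was between 192 and 228 CPM (counts scaled to the library size) in the mice with digit 1 and between 1378 and 1477 CPM in those with digit 3. Since digit 1 made up 3 of 6 mice of the FTY720 group and 1 of 4 of the placebo group, the comparison of FTY720 with placebo is given for the 8 genes without the digit, with the digit as a covariate and within each digit. Neuron, astrocyte and oligodendrocyte markers were all above 0 in every mouse, while 5 of 7 T-cell markers were at 0 in at least 1 mouse. Total counts lay between 14772745 and 18303981 per mouse. The 8 genes had between 476 and 3517 counts each in a mouse, so that counting error was small beside the spread between mice. Nothing in the labels ties mice to litters or cages, and p-values measure the spread between these mice.

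PI3K is recruited to activated growth factor and insulin receptors through its regulatory subunits, and its catalytic subunits phosphorylate a membrane lipid to make PIP3. PIP3 brings AKT and PDPK1 together at the membrane, where PDPK1 phosphorylates AKT; mTOR acts both above AKT, in mTOR complex 2, and below it, in mTOR complex 1, which promotes protein synthesis and restrains autophagy. In the brain the pathway is known for its part in neuronal growth, myelination and the survival of endothelial and glial cells. Kinase activity is set by phosphorylation, which RNA levels do not measure.

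Each of the 8 genes is protein-coding and had the same coordinates in the count table (GRCm38) and in the GENCODE M21 annotation. Pik3ca (ENSMUSG00000027665) lies on chromosome 3 from 32397671 to 32468486 on the plus strand, and Pik3cb (ENSMUSG00000032462) on chromosome 9 from 99036654 to 99140621 on the minus strand. Pik3r1 (ENSMUSG00000041417) lies on chromosome 13 from 101680563 to 101768217 and Pik3r2 (ENSMUSG00000031834) on chromosome 8 from 70768176 to 70776713, both on the minus strand. Pdpk1 (ENSMUSG00000024122) lies on chromosome 17 from 24073680 to 24150924 on the minus strand. Akt1 (ENSMUSG00000001729) lies on chromosome 12 from 112653821 to 112674884 on the minus strand, and Akt2 (ENSMUSG00000004056) on chromosome 7 from 27591552 to 27640826 on the plus strand. Mtor (ENSMUSG00000028991) lies on chromosome 4 from 148448611 to 148557683 on the plus strand. Reads of overlapping genes could not be assigned by strand, since the strand setting of the counting is not given in the sources used here, but those genes had few counts: Angptl7, opposite Mtor, had 5 to 21 counts per mouse, 6330537M06Rik, opposite Pik3r2, had 6 to 16, and Gm37123, within Pik3ca, had 2 to 24. Akt2, Pik3cb and Pdpk1 overlapped no other gene.

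The base composition of the transcripts differed widely between the 8 genes, and it is given here because the counts were also fitted after removal of the trends of each library on GC content. GC content of the longest annotated transcript was 61.42% for Pik3r2, 59.74% for Akt1, 55.24% for Akt2 and 54.22% for Mtor, against a median of 49.43% over the genes tested. It was 45.78% for Pdpk1, 45.77% for Pik3cb, 44.93% for Pik3r1 and 41.2% for Pik3ca. Pik3r2 and Akt1 thus stood at percentiles 97.8 and 95.1 of the genes tested, and Pik3ca at percentile 10.9. The promoters of 4 genes are printed to show that the GC content before the start did not follow that of the transcript. They belong to the genes whose treatment difference passed an unadjusted p of 0.05 when the digit was taken into account. Each is the 250 bases before the RefSeq start (GRCm38.p6) nearest the gene start in the count table. Akt1 has 2 RefSeq starts and Akt2 has 4, and their other starts were not examined. The bases are written 5′ to 3′ on the strand of the gene. Capitals mark the GC box GGGCGG or its complement CCGCCC, the core motif bound by SP1 family factors.
Akt1, chr12:112674885-112675134, minus strand: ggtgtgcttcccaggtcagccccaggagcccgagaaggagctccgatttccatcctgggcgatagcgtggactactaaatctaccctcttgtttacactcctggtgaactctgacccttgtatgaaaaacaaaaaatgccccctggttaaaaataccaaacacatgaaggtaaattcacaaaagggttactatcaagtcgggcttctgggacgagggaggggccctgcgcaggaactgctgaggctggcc
Akt2, chr7:27591302-27591551, plus strand: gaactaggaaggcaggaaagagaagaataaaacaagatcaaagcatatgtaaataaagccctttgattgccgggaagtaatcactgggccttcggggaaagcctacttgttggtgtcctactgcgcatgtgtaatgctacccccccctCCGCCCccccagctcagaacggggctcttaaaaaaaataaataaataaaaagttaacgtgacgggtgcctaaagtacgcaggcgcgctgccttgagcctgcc
Pik3ca, chr3:32396815-32397064, plus strand: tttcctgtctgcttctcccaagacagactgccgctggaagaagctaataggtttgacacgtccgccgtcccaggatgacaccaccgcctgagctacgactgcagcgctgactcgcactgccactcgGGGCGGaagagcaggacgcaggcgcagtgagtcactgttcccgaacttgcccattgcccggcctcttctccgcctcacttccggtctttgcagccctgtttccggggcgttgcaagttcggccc
Pik3r2, chr8:70776713-70776962, minus strand: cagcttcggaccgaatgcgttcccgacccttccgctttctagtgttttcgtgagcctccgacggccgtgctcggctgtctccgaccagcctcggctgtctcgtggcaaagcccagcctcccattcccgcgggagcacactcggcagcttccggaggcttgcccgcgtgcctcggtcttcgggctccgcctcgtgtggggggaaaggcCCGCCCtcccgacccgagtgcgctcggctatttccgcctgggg

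GC content of these 250 bases was 52.0% for Akt1, 48.8% for Akt2, 61.6% for Pik3ca and 68.4% for Pik3r2, against a median of 52.4% over 32851 mouse promoters. Pik3ca, with the most AT-rich transcript of the 8 genes, thus had a GC-rich promoter. Akt1 held no GC box in this window, and Akt2, Pik3ca and Pik3r2 held 1 each; 32.7% of the promoters held at least 1 on either strand. A forkhead element (GTAAACA or its complement TGTTTAC), the motif bound by the FOXO factors that AKT phosphorylates, occurred once in the Akt1 window and in 3.17% of all promoters, and no E-box (CACGTG, found in 6.02%) occurred in the 4 windows. The RefSeq start used for Pik3ca lies 606 bases before the gene start in the count table, and those used for the other 3 printed genes within 1 base of it.

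Compared per length in FPKM (fragments scaled to gene length and library size), the 8 genes fell into a top, a middle and a bottom. Akt1, the AKT kinase best known for growth and survival, had the highest level, at 37.9 ± 7.38 FPKM (SD, n = 10), and Pik3r2, which encodes the regulatory subunit p85-beta, was second at 29.8 ± 7.17 FPKM. Akt1 exceeded Pik3r2 in 10 of 10 mice and Pik3r2 exceeded Pik3r1 in 10 of 10 mice, each with a two-sided exact sign-flip permutation p of 0.00195, the smallest that 1024 arrangements allow (0.00456 after Benjamini-Hochberg adjustment over the 7 neighbouring pairs). These p-values measure the spread between mice only, and the order also rests on the gene length used. Akt1 and Pik3r2 have the shortest gene lengths of the 8, at 4098 and 4176 bases. Without division by length, the mean level was 157 CPM for Akt1, 126 for Pik3r2, 159 for Pdpk1 and 152 for Pik3r1. The middle held Pik3r1, which encodes p85-alpha, at 14.9 ± 0.968 FPKM, Pdpk1 at 14.4 ± 2.37, Akt2 at 12.9 ± 1.82, Mtor at 11.2 ± 1.47 and Pik3ca, which encodes the catalytic subunit p110-alpha, at 9.84 ± 1.74 FPKM. Neighbours within it did not differ beyond their spread: the adjusted exact permutation p was 0.27 for Pik3r1 over Pdpk1, 0.20 for Pdpk1 over Akt2, and 0.0711 both for Akt2 over Mtor and for Mtor over Pik3ca. Pik3cb, which encodes p110-beta, was lowest at 5.23 ± 0.661 FPKM and lay below Pik3ca in 10 of 10 mice (adjusted exact permutation p = 0.00456). Pik3r1 varied least across the mice, with a mean absolute deviation of 0.0696 from its mean on the log2 CPM scale, and Pik3r2 most, with 0.279.

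Whether FTY720 changed the level of the core genes was asked first over all mice. Akt2, the AKT kinase best known for its part in insulin signaling, was the 1 gene of 8 with an unadjusted p under 0.05, beside 2.61% of all genes tested, and no core gene passed after adjustment. Akt2 had 80.1, 82.0 and 99.9 CPM in the FTY720-treated mice with digit 1 and 71.8, 96.6 and 81.2 CPM in those with digit 3. The placebo mice had 96.1 CPM with digit 1 and 106, 101.3 and 113 CPM with digit 3. The 4 lowest values were all from FTY720-treated mice and the 3 highest all from placebo mice, but the groups overlapped.

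The mean level of Akt2 was 85.3 ± 10.7 CPM (SD, n = 6) in the treated group and 104 ± 7.19 CPM (SD, n = 4) in the placebo group. The log2 fold change was -0.29 (standard error 0.11), with an unadjusted p of 0.0223 and an adjusted p of 0.99992 from edgeR's quasi-likelihood test, and a two-sided exact permutation test over 210 splits of the mice gave p = 0.0190. Without the placebo mouse P3-907, which had the highest Akt2 level, the log2 fold change was -0.25 and edgeR's unadjusted p was 0.0763, so that the call ended. Adjusted over all 17665 genes, 0 genes passed in edgeR (0%), against 461 at an unadjusted p under 0.05, and neither DESeq2 nor limma-voom gave any adjusted call.

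**Figure D1:**
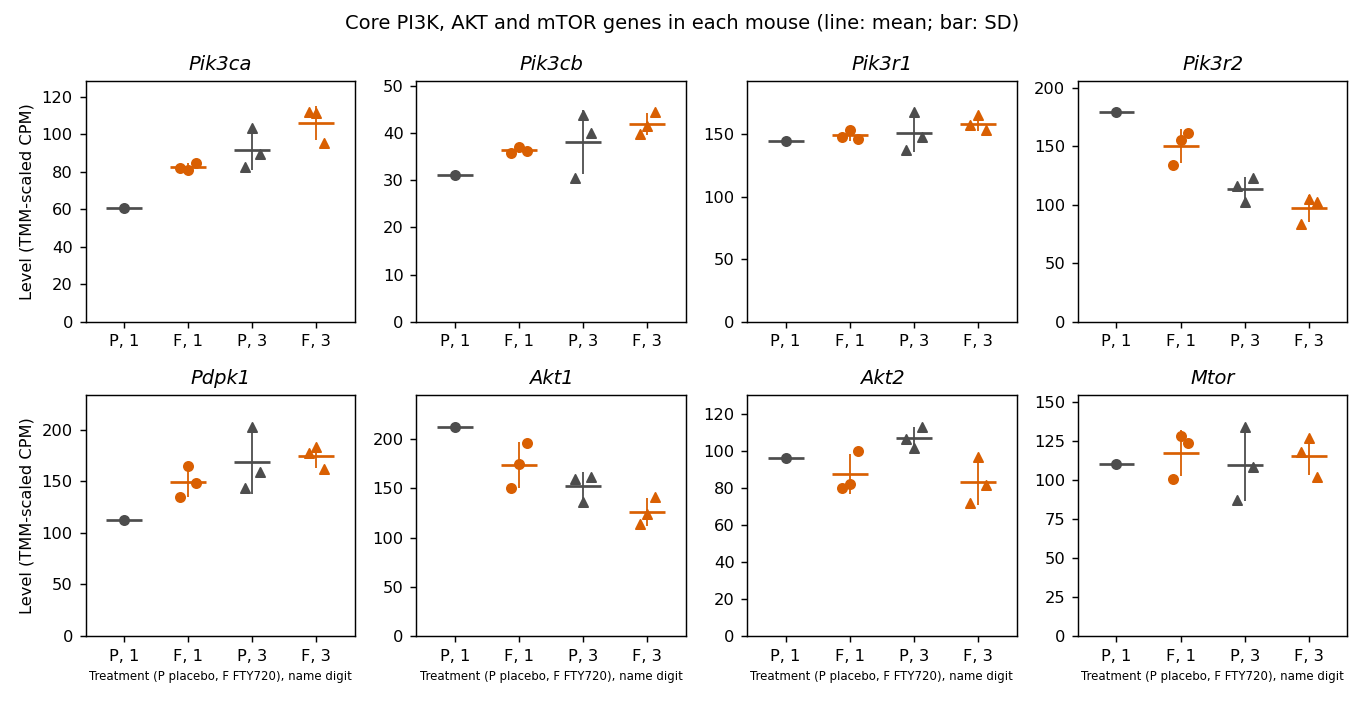
Level of each of the 8 core genes (TMM-scaled CPM, axes from 0) in each mouse, by treatment (P placebo, F FTY720) and name digit; points are mice, lines are means and vertical bars are SD where there is more than 1 mouse. Akt2 is lower with FTY720 than with placebo in the means of both digits, whereas Pik3r2, Akt1 and Pik3ca are ordered mainly by the digit.

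The other 7 genes differed by less than the spread between mice. Akt1 had 150, 175 and 196 CPM in the FTY720-treated mice with digit 1, 113, 124 and 141 CPM in those with digit 3, 213 CPM in the placebo mouse with digit 1, and 160, 136 and 161 CPM in the placebo mice with digit 3. Within each digit the placebo values of Akt1 lay mostly above the treated ones, and between the digits they lay far apart, so that the overall means of 150 ± 31.1 CPM (SD, n = 6) and 168 ± 32.3 CPM (SD, n = 4) overlapped widely. The log2 fold change of Akt1 was -0.16 (standard error 0.17). For Pik3ca the log2 fold change was 0.17 (standard error 0.15), with 94.5 ± 14.1 CPM (SD, n = 6) in the FTY720 group and 84.1 ± 17.7 CPM (SD, n = 4) in the placebo group. Its values were 82.2, 81.2 and 85.0 CPM with FTY720 and 60.9 CPM with placebo in digit 1, and 112, 111 and 95.5 CPM with FTY720 and 82.4, 103 and 89.8 CPM with placebo in digit 3. The single placebo mouse of digit 1, P1-623, was the lowest of the 10 mice for Pik3ca and the highest for Akt1 and Pik3r2.

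Pik3r2 had 134, 155 and 161 CPM with FTY720 and 179 CPM with placebo in digit 1, and 83.7, 105 and 102 CPM with FTY720 and 116, 102 and 122 CPM with placebo in digit 3. Its 2 digits did not overlap, and its treatment groups did, with means of 123 ± 31.3 CPM (SD, n = 6) and 130 ± 33.8 CPM (SD, n = 4). Pik3cb, Pik3r1, Pdpk1 and Mtor had log2 fold changes of 0.10, 0.04, 0.06 and 0.08, each smaller than its standard error, which lay between 0.09 and 0.15. Pik3r1 lay between 138 and 168 CPM in all 10 mice, Mtor between 87.5 and 134 CPM, Pdpk1 between 113 and 203 CPM and Pik3cb between 30.5 and 44.3 CPM. The median log2 fold change over the 8 genes was 0.05, beside -0.0030 over all genes tested, and none of the 8 had treatment groups that did not overlap, as 0.804% of all genes did.

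With the name digit as a covariate, 4 of the 8 core genes had an unadjusted p under 0.05, beside 12.8% of all genes, and none passed after adjustment (0% of all genes in edgeR; in DESeq2 24 genes passed, none of them one of the 8). Akt1 and Akt2 had lower values with FTY720, by log2 fold changes of -0.28 (standard error 0.10) and -0.29 (standard error 0.11), and Pik3r2 by -0.23 (standard error 0.10). Pik3ca was higher, by 0.28 (standard error 0.10). The unadjusted p-values from edgeR were 0.0167 for Akt1, 0.0187 for Akt2, 0.0314 for Pik3r2 and 0.0106 for Pik3ca, and the adjusted p-values were 0.354 or higher. Permuting the treatment within the digits, which allows 80 arrangements, gave two-sided exact p-values of 0.05 for both Akt1 and Akt2, 0.025 for Pik3ca and 0.075 for Pik3r2. Pik3cb and Pdpk1 both had a log2 fold change of 0.16, Mtor of 0.08 and Pik3r1 of 0.06, and none of these passed.

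Of these 4 genes, the 3 lower ones have the most GC-rich transcripts of the 8 and Pik3ca the most AT-rich one, while Mtor, next to Akt2 in GC content, had a value above 0. After the trends of each library on GC content and gene length had been removed, an alternative chosen after the data were seen, 1 of the 8 genes kept an unadjusted p under 0.05, beside 6.52% of all genes. That gene was Akt2, with a log2 fold change of -0.21 and an unadjusted p of 0.0240 from edgeR. The value was -0.04 for Akt1, 0.08 for Pik3ca and 0.05 for Pik3r2, whose direction thus turned; that of Pik3r1 turned as well, from 0.06 to -0.10, without a call in either fit. What sets the GC trends of the libraries was not tested. Which genes passed depended on single mice. Without P1-623 only Akt2 passed, without the FTY720-treated mouse F3-609 only Pik3ca, and without P3-907 only Akt1 and Pik3ca. Without P3-612 Pik3r2 no longer passed, while without P3-904 Pik3cb and Pdpk1 passed as well. The share of all genes that passed in these refits is not given here, so nothing particular to the core genes is read from them. The log2 fold changes kept their direction with each mouse left out, between -0.34 and -0.24 for Akt1, -0.36 and -0.22 for Akt2, -0.28 and -0.18 for Pik3r2, and 0.21 and 0.35 for Pik3ca.

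**Figure D2:**
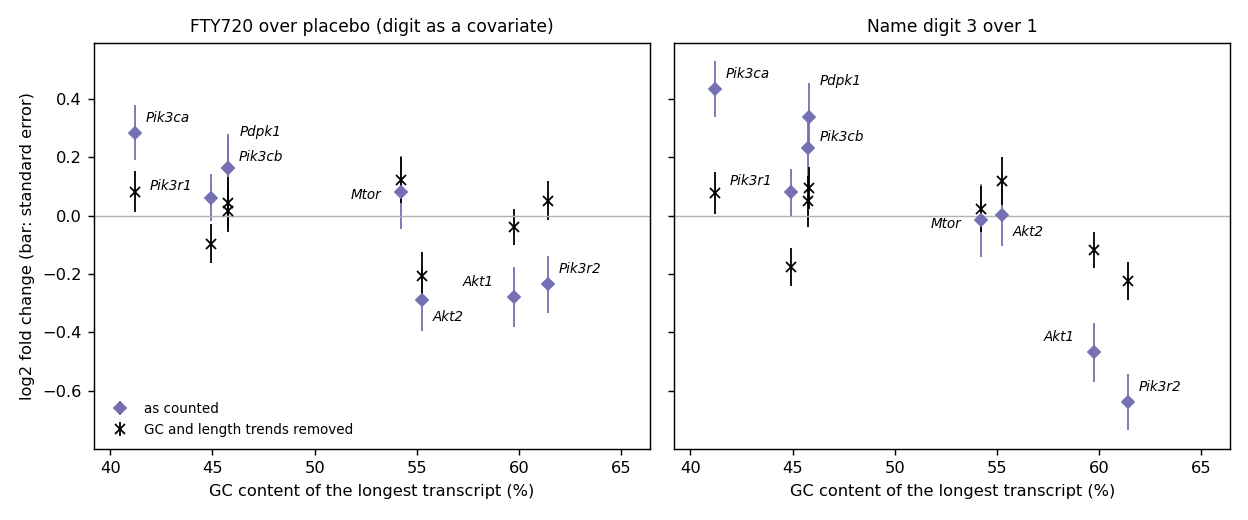
Log2 fold change of each core gene against the GC content of its longest transcript, for FTY720 over placebo with the digit as a covariate (left) and for digit 3 over digit 1 (right); bars are standard errors, diamonds the counts as deposited and crosses the fit after removal of the GC and length trends. Pik3r2 and Akt1, with the highest GC content, have the lowest or nearly the lowest values as counted, Pik3ca the highest, and most crosses lie nearer to 0.

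Cell-type markers moved with the treatment beside the core genes, and their part in these results was not tested. All 10 oligodendrocyte markers had log2 fold changes below 0 without a covariate (median -0.26). An unadjusted p under 0.05 was reached by 4 of them, beside 2.61% of all genes in that fit. The summed level of the 10 lay between 5716 and 6642 CPM with FTY720 and between 6534 and 7574 CPM with placebo. Of the 7 endothelial markers, 6 were above 0 (median 0.37), and 2 had an unadjusted p under 0.05, beside the same 2.61% of all genes. Their sums were 151 to 254 CPM with FTY720 and 133 to 167 CPM with placebo. With the digit as a covariate 6 of the 10 oligodendrocyte markers (median -0.31, all 6 lower) and 6 of the 7 endothelial markers (median 0.46, all 6 higher) passed the unadjusted threshold, beside 12.8% of all genes. In that fit all 7 microglia markers lay below 0 (median -0.13, 1 passed), as did 7 of 8 striatum markers (median -0.21, 2 passed), and 2 of 8 neuron markers passed, both lower. A single cerebellum marker passed, higher, as did a single marker of cortex and hippocampus, lower, and no astrocyte or T-cell marker. No marker passed after adjustment. Without a covariate these other lists held no gene with an unadjusted p under 0.05, and their median log2 fold changes were -0.05 for neurons, -0.0048 for astrocytes, -0.0095 for microglia, -0.49 for cerebellum, 0.11 for cortex and hippocampus, -0.09 for striatum and -0.19 for the 2 of 7 T-cell markers tested. In these bulk samples, fewer cells of a type and less RNA per cell cannot be told apart.

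Within digit 3, where both groups had 3 mice, 1 of the 8 genes had an unadjusted p under 0.05, beside 7.22% of all genes. It was Akt2, at 83.2 ± 12.5 CPM with FTY720 and 107 ± 5.83 CPM with placebo (SD, n = 3 each): all 3 treated mice lay below all 3 placebo mice, and 12.9% of all genes had groups that did not overlap within digit 3. Its log2 fold change there was -0.36 (standard error 0.13, with an unadjusted p of 0.0198 and an adjusted p of 0.658 from edgeR), and the exact permutation p was 0.1, the smallest that 3 mice against 3 allow. After removal of the GC and length trends it was -0.28, with an unadjusted p of 0.0149 from edgeR. The call was lost without F3-609, without F3-908 or without P3-907, with log2 fold changes of -0.27, -0.34 and -0.32 and unadjusted edgeR p-values of 0.0903, 0.0540 and 0.0724. Akt1, Pik3ca and Pik3r2 had log2 fold changes of -0.27, 0.21 and -0.23 within digit 3, with unadjusted edgeR p-values of 0.0637, 0.0965 and 0.103. Without F3-908 Akt1 and Pik3ca passed, with unadjusted p-values from edgeR of 0.0325 and 0.0497, as they did without P3-904, with 0.0306 and 0.0272. Their adjusted edgeR p-values were 0.470 and 0.481 without F3-908, and 0.248 and 0.242 without P3-904. The 7.22% of all genes belongs to the fit of all mice, and the share in these refits is not given here. Of the markers within digit 3, 6 of 10 for oligodendrocytes, 2 of 7 for microglia and 2 of 8 for neurons passed the unadjusted threshold, all lower, and 4 of 7 for endothelial cells, all higher, beside the 7.22% of all genes. The lists of striatum and of cortex and hippocampus held 1 such marker each, lower, and that of cerebellum 1, higher.

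Within digit 1 the placebo group is the single mouse P1-623, so that treatment cannot be told apart from that mouse, and the values are given as a description; the standard errors assume that it varied like the others. Pik3ca had 82.8 ± 1.94 CPM in the 3 treated mice and 60.9 CPM in P1-623, and its log2 fold change was 0.44 (standard error 0.17). It was the 1 gene of 8 with an unadjusted p under 0.05 in that fit, beside 3.69% of all genes, a count that rests on P1-623, which had the lowest Pik3ca level of the 10 mice. The log2 fold change of Pdpk1, the kinase that phosphorylates AKT at the activation loop, was 0.41 (standard error 0.20), that of Akt1 was -0.29 (standard error 0.18), that of Pik3r2 was -0.25 (standard error 0.18) and that of Akt2 was -0.14 (standard error 0.19). The test of the interaction between treatment and digit gave an unadjusted p under 0.05 for 0 of the 8 genes in edgeR, beside 1.95% of all genes, and for 0 of the 8 in DESeq2 and limma-voom. The smallest p was 0.166, for Pdpk1. This test too rests on P1-623 as the only placebo mouse of digit 1, and nothing is read from it on whether the treatment difference depends on the digit.

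**Figure D3:**
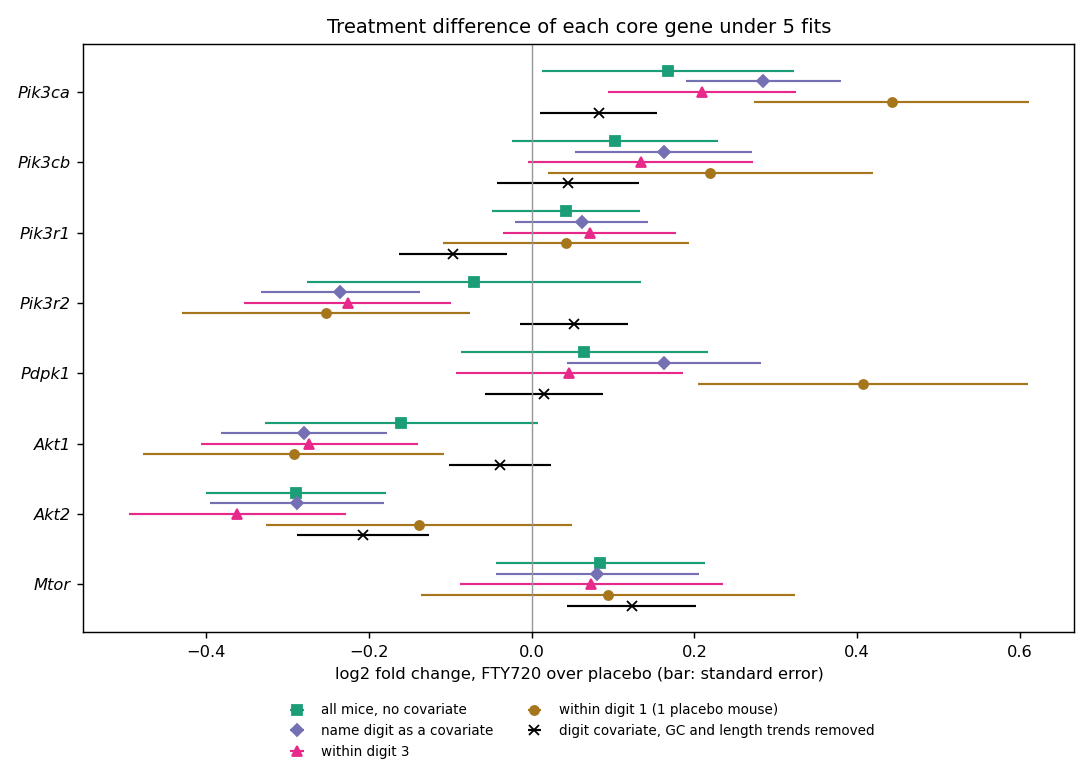
Log2 fold change of FTY720 over placebo for each core gene under 5 fits, with standard errors as bars. Akt2 lies below 0 in every fit, from -0.36 within digit 3 to -0.14 within digit 1, and Pik3r2 and Pik3r1 change side after removal of the GC and length trends.

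In the fit with both terms, the difference between the digits was larger in size than that between the treatments for 6 of the 8 genes. Between digit 3 and digit 1, with treatment as a covariate, 3 of the 8 genes passed an adjusted p of 0.05, beside 28.4% of all genes, and 4 an unadjusted one, beside 41.4%, so that the share of the 8 genes was close to that of all genes. Pik3r2 was lower in digit 3, by -0.64 on the log2 scale (standard error 0.10, edgeR's adjusted p = 0.0007), with 105 ± 13.3 CPM (SD, n = 6) against 157 ± 18.6 CPM (SD, n = 4). All 6 mice with digit 3 lay below all 4 with digit 1, which was so for Pik3r2 alone among the 8 genes; 14.2% of all genes had digits that did not overlap. Akt1 was lower in digit 3 by -0.47 (standard error 0.10, edgeR's adjusted p = 0.0059), with 139 ± 19.1 CPM against 184 ± 27.1 CPM. Pik3ca was higher in digit 3 by 0.43 (standard error 0.10, edgeR's adjusted p = 0.0064), with 99.0 ± 11.9 CPM against 77.3 ± 11.04 CPM.

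Pdpk1 differed by 0.34 on the log2 scale between the digits (standard error 0.12) and missed the threshold narrowly, with an adjusted edgeR p of 0.0508. Pik3cb had 0.23, Pik3r1 0.08, Akt2 0.00 and Mtor -0.02, the last 3 within their standard errors, which lay between 0.08 and 0.12. Without the placebo mouse P3-612, Pdpk1 and Pik3cb passed as well. Pdpk1 also passed without F1-624, F3-908 or P3-904, with adjusted edgeR p-values of 0.0328, 0.0411 and 0.0407. Without P1-623 Pik3ca no longer passed. The share of all genes that passed in these refits is not given here. After removal of the GC and length trends, 1 of the 8 genes passed, beside 24% of all genes: Pik3r2, at -0.22 (edgeR's adjusted p = 0.0268). Markers of brain regions moved with the digit: 12 of 12 cerebellum markers were higher in digit 3 (adjusted, median log2 fold change 2.76), 7 of 8 striatum markers were lower (median -0.42), and 7 of 10 cortex and hippocampus markers were lower and 1 higher (median -0.50). Of the cell types, 5 of 7 microglia markers (median -0.52), 2 of 8 neuron markers (median -0.10) and 1 of 10 oligodendrocyte markers (median -0.15) were lower in digit 3 after adjustment, 2 of 7 endothelial markers were higher (median 0.39), 2 of 7 astrocyte markers were higher and 1 lower (median 0.04), and neither T-cell marker tested passed. The part of the tissue content in the difference of the core genes was not tested.

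Paralog usage was compared as log2 ratios of FPKM within each mouse, which removes the scaling of the library. Akt1 exceeded Akt2 in every mouse, by 2.23-fold in F3-612 to 3.85-fold in P1-623. The log2 ratio was 1.60 ± 0.26 (SD, n = 6) in the treated mice and 1.47 ± 0.33 (SD, n = 4) in the placebo mice, a difference of 0.13 with a two-sided exact permutation p of 0.490. Within the digits the difference was 0.01 (exact permutation p = 0.9). Pik3ca exceeded Pik3cb by 1.55-fold in P1-623 to 2.23-fold in F3-609, and its log2 ratio differed by 0.06 between treatments (exact permutation p = 0.571) and by 0.12 within the digits (p = 0.2375). Pik3r1 lay below Pik3r2 in every mouse, at a ratio of 0.336 in P1-623 to 0.779 in F3-609, and its log2 ratio differed by 0.12 between treatments (exact permutation p = 0.657) and by 0.30 within the digits (p = 0.0625). None of the 3 ratios passed a test by treatment: the adjusted exact permutation p over the 6 ratio tests was 0.657 for each ratio over all mice, and within the digits it was 0.9 for Akt1 over Akt2, 0.285 for Pik3ca over Pik3cb and 0.125 for Pik3r1 over Pik3r2.

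Between the digits, 2 of the 3 ratios differed. The log2 ratio of Akt1 to Akt2 was 1.36 ± 0.16 (SD, n = 6) in digit 3 and 1.83 ± 0.11 (SD, n = 4) in digit 1, with no overlap. The difference was -0.47, with an exact permutation p of 0.00476, the smallest that 210 splits allow, and an adjusted p of 0.0286 over the 6 ratio tests. The log2 ratio of Pik3r1 to Pik3r2 was -0.71 ± 0.26 (SD, n = 6) in digit 3 and -1.35 ± 0.19 (SD, n = 4) in digit 1, again with no overlap, and differed by 0.64 (exact permutation p = 0.00952, adjusted p = 0.0286). Permuted within the treatment groups, both gave an exact p of 0.0125, the smallest that 80 arrangements allow. Pik3ca over Pik3cb differed by 0.18 (exact permutation p = 0.1). After removal of the GC and length trends the differences were -0.27 for Akt1 over Akt2 (exact permutation p = 0.0524), 0.03 for Pik3ca over Pik3cb (exact permutation p = 0.748) and 0.09 for Pik3r1 over Pik3r2 (exact permutation p = 0.433).

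**Figure D4:**
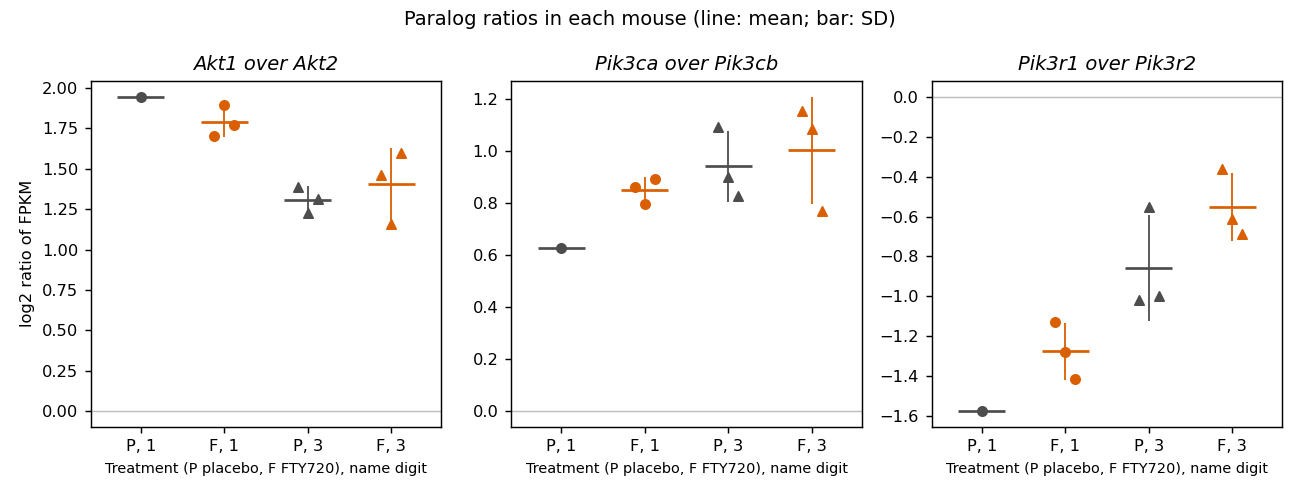
Log2 ratio of FPKM between paralogs in each mouse, by treatment (P placebo, F FTY720) and name digit; points are mice, lines are means and bars are SD where there is more than 1 mouse. For Akt1 over Akt2 the digit 1 mice lie between 1.71 and 1.95 and the digit 3 mice between 1.16 and 1.60; for Pik3r1 over Pik3r2 the digit 3 mice all lie above the digit 1 mice.

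Adding Pik3cd and Pik3r3 gave the share of each subunit within the summed FPKM of the catalytic and of the regulatory PI3K subunits. Pik3ca held between 43.1% and 56.0% of the sum of the catalytic subunits, Pik3cb between 25.0% and 30.1%, and Pik3cd, the form best known from leukocytes, between 18.7% and 29.0%. Pik3r2 held between 38.0% and 65.7% of the regulatory sum, with 45.4 ± 5.02% (SD, n = 6) in digit 3 and 60.3 ± 4.50% (SD, n = 4) in digit 1. Pik3r3, which encodes p55-gamma, held 26.9 ± 3.30% in digit 3 and 16.0 ± 3.33% in digit 1, and Pik3r1 27.8 ± 1.98% and 23.7 ± 1.45%. Of the catalytic sum, Pik3ca held 52.9 ± 2.38% in digit 3 and 46.4 ± 2.32% in digit 1, Pik3cb 27.0 ± 1.99% and 26.7 ± 1.16%, and Pik3cd 20.2 ± 1.59% and 26.9 ± 2.01%. These shares are a description: their difference between the digits was not tested, and they were not recomputed after removal of the GC and length trends, which took the log2 ratio of Pik3r1 to Pik3r2 from a difference of 0.64 to 0.09.

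**Figure D5:**
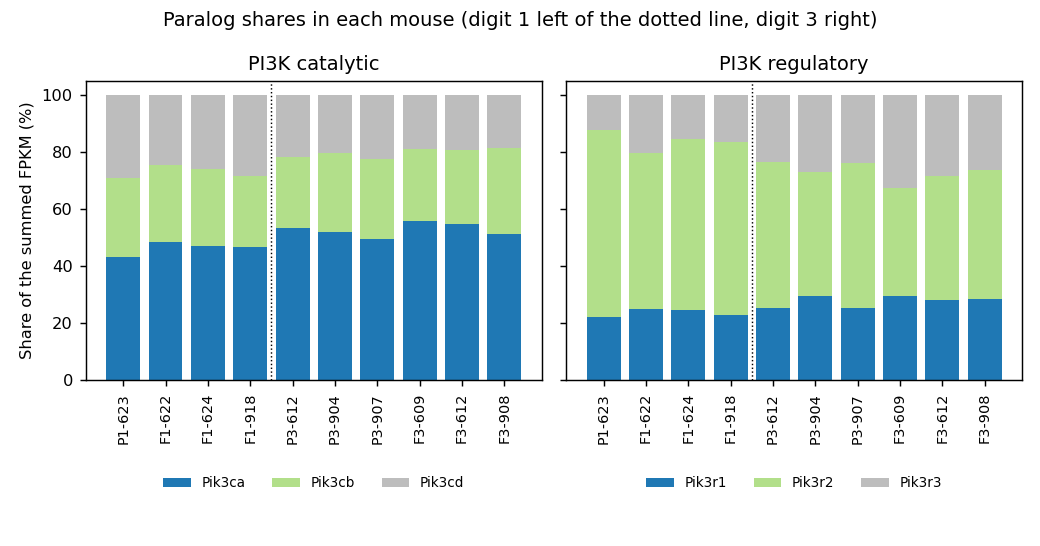
Share of the summed FPKM (%) of the catalytic (left) and regulatory (right) PI3K subunits held by each paralog in each mouse; bars are mice, with digit 1 to the left of the dotted line. In the means of digit 3 Pik3ca, Pik3r1 and Pik3r3 hold a larger share than in digit 1, Pik3r2 and Pik3cd a smaller one, and Pik3cb about the same.

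The rest of the pathway was read from 6 lists, and in none of them did a gene pass adjustment for the treatment (edgeR; 0% of all genes). At an unadjusted p under 0.05, which 2.61% of all genes reached, the counts were small. Of the ligands, receptors and adaptors, 2 of 32 passed, both lower with FTY720: Vegfa, the vascular growth factor (log2 fold change -0.35, 68.7 ± 7.03 against 87.3 ± 21.0 CPM), and Egf (-0.58, 2.02 ± 0.685 against 3.02 ± 0.553 CPM). Both calls ended with the digit as a covariate, with -0.23 for Vegfa and -0.45 for Egf and unadjusted p-values from edgeR of 0.0779 and 0.0510, and both genes were higher in digit 3 than in digit 1, at 85.0 ± 15.1 against 62.9 ± 5.48 CPM for Vegfa and 2.88 ± 0.610 against 1.73 ± 0.449 CPM for Egf. Of 10 related AGC kinases, 1 passed: Sgk1, a kinase activated by PDPK1 and mTOR complex 2, at 100 ± 13.3 against 74.8 ± 17.99 CPM (log2 fold change 0.42, with an unadjusted p of 0.0201 from edgeR; 0.37 and 0.0171 with the digit as a covariate). None of the 22 phosphatases and inhibitors of PI3K and AKT, the 10 other PI3K subunits tested, the 36 genes of the mTOR complexes and their regulators, or the 28 AKT and mTOR targets passed. The median log2 fold changes were 0.06 for ligands, receptors and adaptors, -0.01 for phosphatases and inhibitors, 0.07 for related AGC kinases, 0.08 for other PI3K subunits, -0.02 for the mTOR complexes and 0.04 for targets, beside -0.0030 over all genes.

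With the digit as a covariate the unadjusted count was 1 of 10 for the other PI3K subunits (higher), 4 of 32 for ligands, receptors and adaptors (4 higher), 3 of 22 for phosphatases and inhibitors (1 higher, 2 lower), 3 of 36 for the mTOR complexes (3 lower), 3 of 10 for related AGC kinases (3 higher) and 7 of 28 for targets (5 higher, 2 lower). The 4 ligands and receptors were not those called without the digit: they were Flt1 (0.56) and Kdr (0.37), both receptors of VEGF, the growth factor Fgf2 (0.30) and the insulin receptor gene Insr (0.28), named after their values were seen. Flt1 and Kdr are also on the list of 7 endothelial markers, of which 6 were higher in the same fit (median 0.46). Beside them stand the 12.8% of all genes, and none of the list genes passed after adjustment. Within digit 3 the unadjusted counts were 0 of 10, 3 of 32 (2 higher, 1 lower), 0 of 22, 3 of 36 (3 lower), 1 of 10 (higher) and 3 of 28 (1 higher, 2 lower), in the same order, beside 7.22% of all genes. With the digit as a covariate the medians, in the same order, were 0.03, 0.07, -0.01, -0.03, 0.10 and 0.08, against -0.0074 over all genes. Pik3r3 had a log2 fold change of 0.27 in that fit (with an unadjusted p of 0.0211 from edgeR) and Pik3cd of 0.03 (0.769).

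Between the digits, the number of genes that passed adjustment was 3 of 10 for the other PI3K subunits, 13 of 32 for ligands, receptors and adaptors, 8 of 22 for phosphatases and inhibitors, 6 of 36 for the mTOR complexes, 5 of 10 for related AGC kinases and 12 of 28 for targets, beside 28.4% of all genes. The median log2 fold changes, in the same order, were -0.17, 0.20, 0.03, -0.05, 0.32 and 0.11, against -0.0107 over all genes. Pik3r3 was higher in digit 3 (log2 fold change 0.66, edgeR's adjusted p = 0.000947), as was Pik3c2a, a class II PI3K (0.73). Among receptors and ligands, Kit (1.04) and Fgf1 (0.66) were higher in digit 3. Among inhibitors Trib1, a pseudokinase, was lower (-0.88) and Inpp4b, a lipid phosphatase, was higher (0.73). Rictor, the defining subunit of mTOR complex 2, was higher (0.79) and Akt1s1, which encodes the mTOR complex 1 inhibitor PRAS40, was lower (-0.68). The kinases Rps6ka1 (0.98) and Rps6ka3 (0.73) and the AKT targets Tbc1d4, a regulator of glucose transporter traffic (1.48), and Chuk, an IKK kinase (0.80), were higher in digit 3. All of these were past an adjusted p of 0.05.

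For each core gene, the 2 genes with the most similar pattern from mouse to mouse were taken. Likeness was measured among 14783 protein-coding genes, as the mean absolute difference between 2 genes. The values compared were their log2 CPM deviations from the mean over the 10 mice. It is a description, since all genes share the 10 libraries, the digit and the base composition. The nearest of so many genes must lie below the median over them. Nearest distances were not computed for other genes, so closeness is not read as a trait of the core genes. For Akt1 the nearest gene was Tnk2, a tyrosine kinase, at 0.0253, followed by Trim8 at 0.0342, against a median of 0.292 over all genes. For Akt2 they were Tmem132a (0.0571) and Zdhhc14 (0.0633), and for Mtor the kinesin gene Kif21b (0.0396) and Myh10 (0.0418). Pik3ca was nearest to Creb1, which encodes a transcription factor that AKT phosphorylates (0.0385), and to Smchd1 (0.0415), and Pik3cb to Plcl1 (0.0476) and Map3k20 (0.0560). Pik3r1 was nearest to Eprs (0.0257) and Vps39 (0.0295), Pik3r2 to the neuronal genes Gprin1 (0.0460) and Ppfia3 (0.04999), and Pdpk1 to Lpgat1 (0.0507) and Gapvd1 (0.0516). No core gene was among the 2 nearest of another.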

How the data were processed

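Brain RNA of 10 mice was sequenced from libraries made with the NEBNext Ultra RNA kit. The submitters' processing notes name CASAVA 1.8, fastp, HISAT2 2.0.5, featureCounts 1.5.0-p3, DESeq2 1.20.0 and GRCm38/mm10; the strand setting is not given in the sources used here. The authors deposited raw counts per gene and mouse, and FPKM values, in which each count is divided by gene length and by a total per mouse other than the sum of the column. CPM values and the fits across genes were computed from the counts, and the paralog ratios and the order of levels, with their tests, from the FPKM values.

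After filterByExpr and TMM scaling, the quasi-likelihood test of edgeR 4.0.16 in R 4.3.3 was run with Benjamini-Hochberg adjustment over all 17665 genes. CPM values use the TMM-scaled library size, and permutation tests of single genes use log2 CPM with a prior count of 2. Differences of single values were tested by two-sided exact permutation. GC content was that of the longest GENCODE M21 transcript (99.9% of the genes tested had a value), and its trend and that of gene length were removed by lowess with a span of 0.3. Alternatives were DESeq2 1.42.0, limma-voom and limma 3.58.1 on log2(FPKM + 0.1) or log2(FPKM + 1), other scalings and filters, added covariates and each mouse left out. The fits were tested on simulated data.

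The 8 genes, the 6 pathway lists and the 9 marker lists were chosen with earlier results of these data known. The genes named were the 8, in each pathway list up to 3 with the smallest p under 0.05 for the treatment and the 2 with the smallest p for the digit, Pik3cd, Pik3r3, Slc20a2 and the 2 genes nearest to each of the 8; Flt1, Kdr, Fgf2 and Insr were named outside this rule, after their values were seen. Some genes of the lists are not reported here and were left out of the list counts.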

Additional observations from a re-analysis of the deposited data

How the results depend on the processing

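Of 821 values recomputed under other settings, 23 kept their sign and passed the threshold in addition, and 20 kept it and no longer passed. That threshold was an adjusted p of 0.05 for single genes between the digits, and an unadjusted p of 0.05 otherwise. The sign was the opposite one in 56. At an unadjusted p under 0.05, 1 of these had passed as reported (Pik3r2, below) and 1 passed under the alternative (Pik3r1, below). The adjusted edgeR p of that Pik3r1 value was 0.0697. Of 182 recomputed counts of core genes, 14 moved by over 1.5 times. Over all mice 1 core gene had an unadjusted p under 0.05 for the treatment, beside 2.61% of all genes. The number was between 0 and 1 with each mouse left out (0 without P3-907). It was 4 with the digit, or the digit and the leading digit of the mouse number, as covariates. The share of all genes with a mouse left out is not given here, so no change in these numbers is read as particular to the core genes. With the digit as a covariate the number was 4, beside 12.8% of all genes, and between 1 and 6 with each mouse left out. After removal of the GC and length trends it was 1, beside 6.52% of all genes, and Pik3r2 turned to 0.0516. Within digit 3 the number was 1, beside 7.22% of all genes. It lay between 0 and 3 with each mouse left out (0 without F3-609 or P3-907, 2 without F3-908, 3 without P3-904). Between the digits the adjusted number was 3, beside 28.4% of all genes, and 1 after removal of the trends, beside 24%. It lay between 2 and 5 with each mouse left out (2 without P1-623, 5 without P3-612). The unadjusted number was 4, beside 41.4% of all genes, and became 2 after the removal. These were Pik3r2, and Pik3r1, which was not among the 4 and whose value turned from 0.08 to -0.18. For the treatment, the log2 ratio of Pik3ca to Pik3cb turned to -0.0140 without P1-623 (range -0.0140 to 0.14 with each mouse left out), and that of Pik3r1 to Pik3r2 to -0.16 after removal of the trends and to -0.0564 without P1-623 (range -0.0564 to 0.28). Between the digits, Akt1 over Akt2 was -0.27 and Pik3r1 over Pik3r2 was 0.0851 after the removal, and neither passed. The cause of these changes was not tested beyond the settings themselves. No adjusted call for the treatment was made among the 8 genes under any setting tried. No paired analysis was possible because the treatment groups share only the mouse number 612, and the labels tie it to no litter or batch. The interaction could not be fitted without P1-623, the only placebo mouse with digit 1. Counting error was small for all 8 genes, and the number of mice, with 1 placebo mouse in digit 1, limits the comparisons.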
